A study of Homo sapiens with 24 samples.

Results

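Resveratrol, a stilbene that plants make, and epigallocatechin gallate (EGCG), a catechin of tea leaves, were compared directly as single agents. All 12 single-agent samples of the series of 24 were used, 6 with resveratrol and 6 with EGCG, beside the 6 untreated controls that show in which direction each agent moved a gene. The cells were MDA686TU (686Tu), 1 established human squamous carcinoma line of the head and neck, and total RNA was taken after 24 h. Resveratrol was given at 15 μM and EGCG at 40 μM, and the remaining 6 samples received both agents at these doses and serve here only for side-by-side values. The doses differed, so each difference below is between these 2 treatments as given and not between the 2 compounds at equal concentration. Resveratrol was dissolved in DMSO and EGCG in water, and whether the controls received DMSO is not given in the sources used here, so agent and solvent cannot be told apart. The labels call the 6 samples of a group replicates without naming separate cultures or days, so the p-values measure the spread between these samples, which may be technical.

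Several pathways recur in the comparison. The aryl hydrocarbon receptor is a transcription factor that binds flat aromatic ligands and switches on CYP1A1 and CYP1B1, which oxidise foreign chemicals. NRF2 drives genes that make glutathione, reduce thioredoxin and conjugate reactive compounds, and ATF4 drives amino acid supply and stress genes such as ATF3 and CHAC1. Under low oxygen or iron shortage, HIF raises glucose uptake, glycolysis, BNIP3 and CA9. BMP receptors act through SMAD proteins on the ID genes, whose products block differentiation factors. Selenoproteins carry selenocysteine, and the transcripts of several of them are lost when selenium is short. In squamous epithelium the cornified envelope genes mark terminal differentiation.

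The libraries held 7976207 to 10602350 counted reads with resveratrol (median 8649664) and 7034872 to 11735574 with EGCG (median 8720820). Of the 60617 genes in the table, 15476 passed the filter on low counts and were tested. Squamous markers such as keratins 5 and 14 were abundant, with a summed FPKM of 4690 to 4940 with resveratrol, 5320 to 5990 with EGCG and 5560 to 5850 in the controls. Endothelial markers summed to at most 0.276 FPKM and leukocyte markers to at most 0.183 in the single-agent samples. Fibroblast markers summed to 15.4 to 18.4 FPKM with resveratrol and 10.7 to 13.2 with EGCG, nearly all of it COL1A1, while THY1 was at 0 and COL3A1, DCN and PDGFRB stayed at or below 0.0332. The mitochondrial share of counts ran from 0.251 to 0.280% for replicates 1, 2 and 3 of both agents, and from 0.448 to 0.775% for replicates 4, 5 and 6, a split the labels do not name. Both agents showed this split, but the share also differed between them. In replicates 1, 2 and 3 it was 0.2513 to 0.2636% with EGCG and 0.2755 to 0.2802% with resveratrol, without overlap. In replicates 4, 5 and 6 it was 0.4478 to 0.6272% with EGCG and 0.5722 to 0.775% with resveratrol. The direct comparison was also made within each set of 3. In bulk RNA, fewer cells of a kind and less RNA per cell cannot be told apart.

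The direct comparison asked how the 2 single agents differ across all expressed genes. It found a difference in 8517 genes, 55.0% of those tested, by edgeR's quasi-likelihood test at a Benjamini-Hochberg adjusted p under 0.1 and a p under 0.05. These differentially expressed genes (DEGs) were split evenly, with 4291 higher with resveratrol (27.7%) and 4226 lower (27.3%). Scaling by library size alone put 67.9% of the calls on the higher side in place of 50.4%. Most differences were small: the median absolute log2 difference among DEGs was 0.292. With a 1.5-fold cut-off 1014 genes were higher with resveratrol (6.55%) and 350 lower (2.26%), so that 74.3% of these calls were on the higher side, or 85.1% with library size alone. At 2-fold 231 genes were higher and 51 lower. The 6 resveratrol and 6 EGCG libraries did not overlap in normalized counts for 4224 genes (27.3%), 2099 of them higher with resveratrol and 2125 lower.

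Most of this distance lay on the resveratrol side. Against the untreated controls, 4466 genes rose with resveratrol (28.9% of those tested) and 4341 fell (28.0%), whereas 140 rose with EGCG (0.905%) and 133 fell (0.859%). The median absolute log2 change over all tested genes was 0.20 with resveratrol and 0.06 with EGCG, beside 0.19 for the direct difference. These comparisons share the same 6 control libraries. Among all tested genes, 9 had an absolute log2 change of 1 or more with EGCG against the controls.

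**Figure D1:**
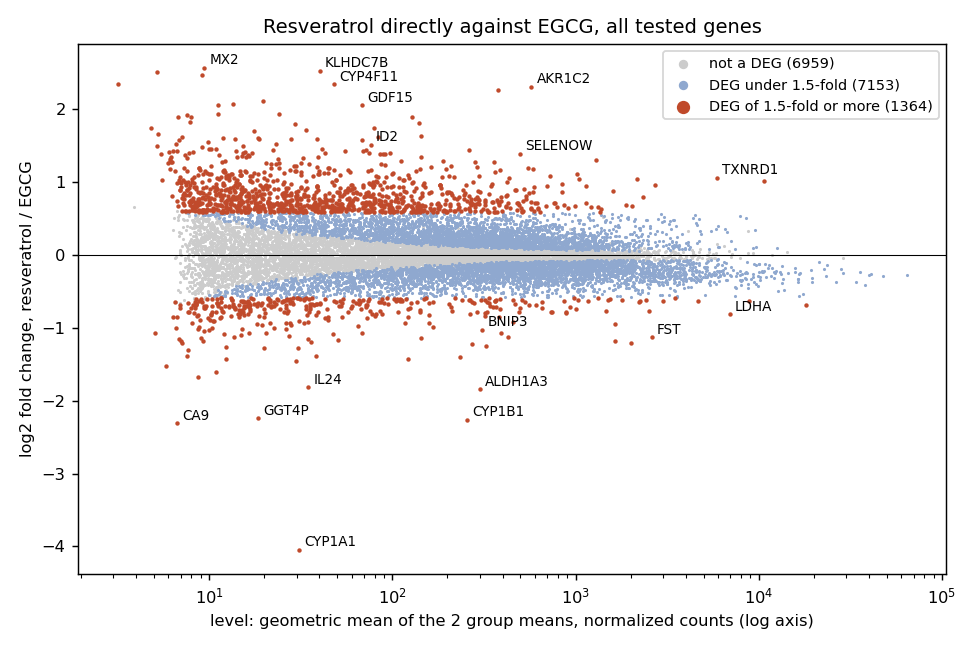
Direct comparison of resveratrol with EGCG for the 15476 genes tested. The horizontal axis is the geometric mean of the 2 group means in normalized counts (log axis), the vertical axis the log2 fold change of resveratrol over EGCG, with grey points for genes that are no DEG, blue for DEGs under 1.5-fold and red for the 1364 at or past it. DEGs lie evenly above (4291) and below 0 (4226), while those past 1.5-fold are mostly above (1014 against 350).

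CYP1A1 had the largest direct difference of the genes lower with resveratrol, and CYP1B1 and ALDH1A3 were among the 12 largest. CYP1A1 (15:74719542-74725536, GRCh38), an aryl hydrocarbon receptor target that oxidises polycyclic aromatics, had lowest, median and highest normalized counts of 3.93, 7.67 and 11.3 with resveratrol, 104, 127 and 143 with EGCG, and 152, 175 and 193 in the controls. The 3 groups did not overlap. The log2 difference between the agents was −4.05 (SE 0.155, edgeR adjusted p = 7e-22), and against the controls CYP1A1 fell by 4.51 with resveratrol and by 0.46 with EGCG on the log2 scale. CYP1B1 (2:38066973-38109902), its extrahepatic relative, had counts of 102, 114 and 136 with resveratrol, 499, 548 and 631 with EGCG, and 707, 743 and 782 in the controls, again without overlap. Its direct log2 difference was −2.26 (SE 0.0627, edgeR adjusted p = 5.5e-26). ALDH1A3 (15:100877714-100916626), which makes retinoic acid from retinal, had counts of 143, 160 and 175 with resveratrol, 546, 568 and 597 with EGCG, and 745, 770 and 823 in the controls. Its log2 difference of −1.84 (SE 0.052, edgeR adjusted p = 7.8e-26) was −1.81 within replicates 1 to 3 alone and −1.88 within the others. All 3 genes thus fell with either agent and fell much further with resveratrol. Among the 5 aryl hydrocarbon receptor targets tested, 3 were lower and 1 higher with resveratrol than with EGCG, 3 fell and 1 rose with resveratrol, and 2 fell with EGCG. TIPARP, the ADP-ribosyltransferase that damps this receptor, was the other lower member, with a log2 difference of −0.17, and the higher one was NQO1, also an NRF2 target.

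CA9 (9:35673928-35681159), the carbonic anhydrase of hypoxic tumour cells, came to a similar difference by the other route. Its counts were 0.955, 3.27 and 4.25 with resveratrol, 11.8, 15.0 and 18.0 with EGCG, and 2.85, 3.91 and 5.53 in the controls. The EGCG samples stood above all others, while the resveratrol and control samples overlapped. The direct log2 difference was −2.31 (SE 0.295, edgeR adjusted p = 3.6e-08), with a rise of 1.93 for EGCG and a value of −0.38 for resveratrol that did not pass (edgeR adjusted p = 0.47). MIR210HG, the host transcript of the hypoxia-induced miR-210, had medians of 6.29 with resveratrol, 20.7 with EGCG and 9.25 in the controls, and a direct log2 difference of −1.60. Both transcripts rest on few reads.

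Cytokines and squamous genes were also on the low side. IL24, an IL-10 family cytokine, had counts of 12.8, 17.9 and 25.7 with resveratrol and 53.9, 65.1 and 78.6 with EGCG. Its log2 difference was −1.81, IL1B, the pyrogenic interleukin, came to −1.40 with medians of 140 and 378, and IL1A to −0.95. SPRR4, a cornified envelope precursor, had medians of 24.1 with resveratrol, 60.4 with EGCG and 68.1 in the controls (log2 difference −1.39). DHRS2, a short-chain dehydrogenase, was at −1.43, MGAM, a maltase, at −1.67, PPP1R3G, a glycogen-targeting phosphatase subunit, at −1.42, and the transcripts GGT4P, LINC01559 and LINC01206 at −2.24, −1.53 and −1.45. In each of these genes the 6 resveratrol libraries lay below the 6 EGCG libraries.

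Among the genes with the largest differences on the high side were AKR1C enzymes, GDF15, FGF21 and MX2. The AKR1C enzymes reduce ketosteroids and reactive aldehydes and are NRF2 targets. AKR1C2 (10:4987775-5018031) had counts of 1178, 1300 and 1364 with resveratrol, 226, 264 and 286 with EGCG, and 202, 253 and 267 in the controls. EGCG and control samples overlapped and all resveratrol samples stood above them, by a log2 difference of 2.31 over EGCG (SE 0.0721, edgeR adjusted p = 9.2e-25). AKR1C1 and AKR1C3 were higher by 2.26 and 1.90. The AKR1C genes are near-identical in sequence and reads may be split between them, so their sum is the safer value: 2371 ± 147 with resveratrol, 497 ± 59.2 with EGCG (normalized counts, mean ± SD, n = 6) and 492 in the controls. CYP4F11, a fatty acid hydroxylase, had medians of 111 with resveratrol and 20.1 with EGCG (log2 difference 2.34). SULT1E1, which sulphates oestrogens, was higher by 2.12, from medians of 8.65 to 41.2.

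GDF15 (19:18374731-18389176), a stress-induced cytokine of the TGF-β family, had counts of 131, 139 and 148 with resveratrol, 20.6, 32.5 and 54.9 with EGCG, and 22.4, 26.7 and 37.8 in the controls. Its log2 difference was 2.06 (SE 0.132, edgeR adjusted p = 1.9e-15), and it was 1.71 within the first 3 replicates and 2.56 within the last 3. FGF21, a second stress hormone and ATF4 target, was higher by 2.48, with medians of 20.5 and 3.55. NUPR1, a stress-induced chromatin protein, was higher by 1.93, and ATF3, a stress-induced transcription factor, by 1.29 with medians of 300 and 120. LAMP3, a lysosomal membrane protein, had counts of 248, 259 and 295 with resveratrol, 56.2, 76.1 and 87.4 with EGCG, and 50.3, 58.5 and 62.8 in the controls. It rose with resveratrol by 2.19 and with EGCG by 0.38 (edgeR adjusted p = 0.032), so the direct difference was 1.81. MX2 (21:41361999-41409393), an interferon-induced antiviral GTPase, had medians of 23.3 with resveratrol and 3.81 with EGCG (log2 difference 2.57), and IFI44L was higher by 2.06. KLHDC7B (22:50545899-50551023), a Kelch repeat protein, had counts of 88.2, 96.7 and 106 with resveratrol and 14.7, 15.8 and 18.7 with EGCG (log2 difference 2.53). SPP1, the secreted phosphoprotein osteopontin, and SMPDL3B, a membrane phosphodiesterase, were higher by 2.52 and 2.08, on medians under 30 normalized counts.

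**Figure D2:**
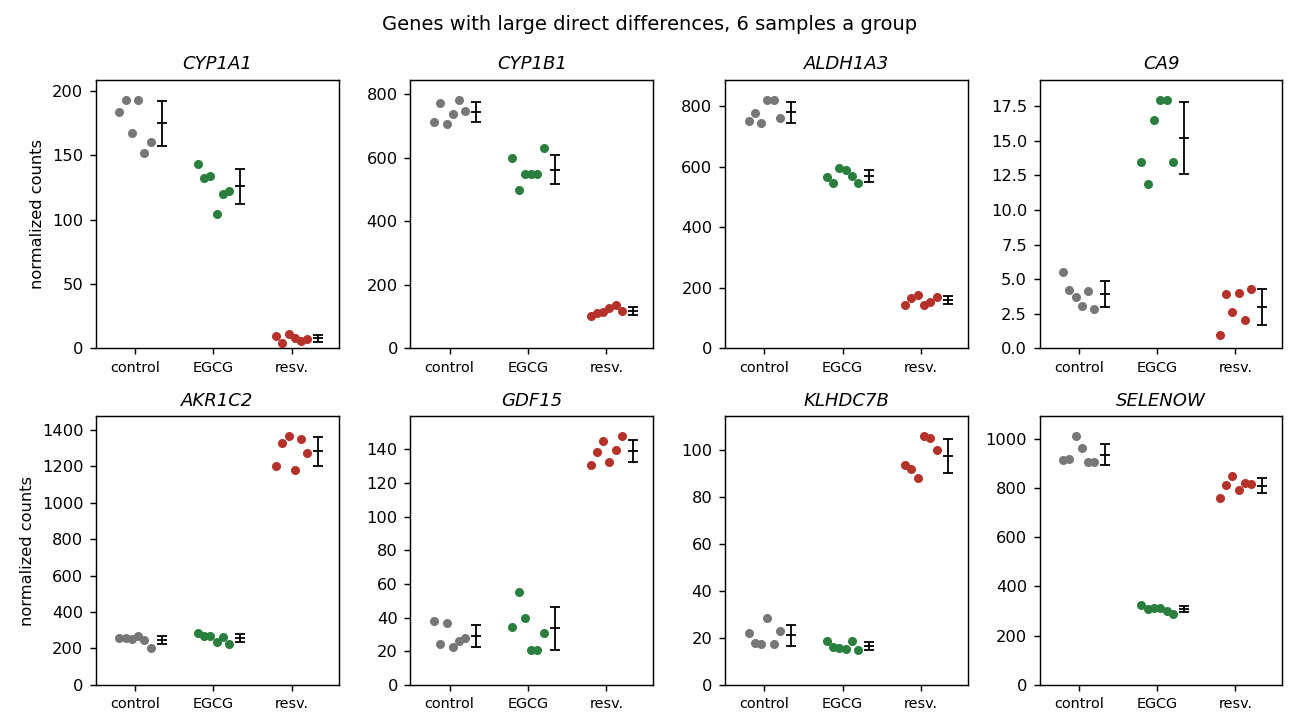
Normalized counts (linear axes from 0) of 8 genes in the untreated control, EGCG and resveratrol samples, 6 points a group, with bars for mean ± SD. CYP1A1, CYP1B1 and ALDH1A3 are lowest with resveratrol, AKR1C2, GDF15 and KLHDC7B highest, while CA9 stands out with EGCG (median 15.0) and SELENOW is low with EGCG (median 309).

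The gene lists below are read against the 27.7% of all tested genes that were higher and the 27.3% that were lower with resveratrol than with EGCG, and against the median log2 difference of 0.004 over all tested genes. Interferon-induced genes were mostly higher with resveratrol. Of 34 tested, 31 were higher with resveratrol and 1 lower, with a median log2 difference of 0.77, and 33 rose with resveratrol against the controls. With EGCG 0 of the 34 were called by edgeR or DESeq2, and 7 had an unadjusted p under 0.05, 4 upward and 3 downward. OAS1, which makes the signal that activates RNase L, was higher by 1.75, MX1 by 1.41 and IFIT3, an inhibitor of viral RNA translation, by 1.07. The list took a median of 0.139% of all counts with resveratrol and 0.0868% with EGCG.

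NRF2 targets followed, with 23 of 28 higher, 2 lower and a median of 0.54. Against the controls, 23 rose and 2 fell with resveratrol, and 1 rose and 2 fell with EGCG. GCLC, the catalytic subunit of the enzyme that starts glutathione synthesis, had counts of 1966, 2023 and 2121 with resveratrol and 780, 825 and 890 with EGCG, a 2.47-fold difference. EPHX1, the microsomal epoxide hydrolase, was higher by 1.28, and GPX2, a glutathione peroxidase, by 1.17. The best-known reporters of the pathway differed less: HMOX1, heme oxygenase, by 0.69, NQO1, a quinone reductase, by 0.48 with medians of 2922 and 2077, FTL, the ferritin light chain, by 0.52, and SLC7A11, the cystine importer, by 0.47.

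Lipid and lysosome genes were on the same side. Of 25 genes of sterol synthesis and uptake, 20 were higher with resveratrol and 0 lower, by edgeR, by DESeq2 and at an unadjusted p under 0.05 alike, and all 25 lay above 0 (median 0.36). TM7SF2, a sterol reductase, was higher by 1.18, and MSMO1, a sterol demethylating oxidase, by 0.71. Of 11 fatty acid synthesis genes, 9 were higher and 1 lower (median 0.39), including ACSS2, which makes acetyl-CoA from acetate, by 1.18 and FADS2, a desaturase, by 1.01. Lysosome and autophagy genes had 20 of 27 higher and 0 lower (median 0.25), again the same counts by DESeq2 and at an unadjusted p. SQSTM1, the p62 cargo receptor, had medians of 3772 with resveratrol and 1959 with EGCG (log2 difference 0.96), and GABARAPL1, an autophagosome protein, was higher by 1.12.

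ATF4 targets and p53 targets were mostly higher as well. Of 28 amino acid and stress response genes, 18 were higher with resveratrol and 5 lower (median 0.30), while against the controls 21 rose and 4 fell with resveratrol and 9 rose and 1 fell with EGCG. Members therefore could rise with both agents and still differ. CHAC1, which degrades glutathione, had counts of 1138, 1180 and 1204 with resveratrol, 570, 606 and 630 with EGCG, and 450, 502 and 517 in the controls, without overlap, a rise of 1.25 with resveratrol and of 0.28 with EGCG. TRIB3, a pseudokinase of the same response, rose by 0.68 and 0.20. SLC7A5 and SLC3A2, the subunits of the large neutral amino acid transporter, went the other way and were lower with resveratrol than with EGCG (log2 differences −0.40 and −0.31). ASNS, asparagine synthetase, was expressed at medians of 28.1 and 21.2 and its difference did not pass (log2 difference 0.28, SE 0.198, edgeR adjusted p = 0.24). Of 26 p53 targets, 17 were higher and 3 lower (median 0.27), with CDKN1A, the p21 cell cycle inhibitor, at medians of 1489 and 730 (log2 difference 1.04).

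Translation, chaperone and cell division genes were lower with resveratrol than with EGCG. All 79 cytosolic ribosomal protein genes tested were lower, with a median of −0.27, beside 78 that fell with resveratrol against the controls. With EGCG 0 were called by edgeR or DESeq2, and 1 had an unadjusted p under 0.05. The list took a median of 4.11% of all counts with resveratrol and 4.61% with EGCG. Of 30 ribosome biogenesis factors 29 were lower and 0 higher (median −0.28), with the same counts by DESeq2 and at an unadjusted p. FBL, the rRNA methyltransferase fibrillarin, had medians of 1083 and 1604 (log2 difference −0.59), and NPM1, nucleophosmin, was at −0.63. Of 18 cytosolic heat shock chaperones 14 were lower and 2 higher (median −0.26), with HSP90AB1, the constitutive HSP90, at −0.56 and CRYAB, a small heat shock protein, higher by 1.00. Against the controls 15 of these chaperones fell and 0 rose with resveratrol, and 4 fell and 0 rose with EGCG. The EGCG counts were 14 and 0 at an unadjusted p, and 7 and 0 by DESeq2. Of 35 mitosis genes 30 were lower and 1 higher (median −0.27), while 31 fell with resveratrol and 7 with EGCG (16 at an unadjusted p, 8 by DESeq2). PLK1, the mitotic kinase, had counts of 1012, 1138 and 1179 with resveratrol, 1871, 1909 and 2007 with EGCG, and 2036, 2150 and 2274 in the controls. It fell with either agent, by 0.92 and by 0.15 on the log2 scale (edgeR adjusted p = 2.6e-21 and 0.02). CDC20, an activator of the anaphase-promoting complex, had a log2 difference of −0.64.

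Differentiation and matrix genes were lower too, with exceptions. Of 27 cornified envelope genes 17 were lower and 2 higher (median −0.31). The median was −0.17 within the first 3 replicates and −0.51 within the last 3. Libraries did not overlap for 9 of the 27, all 9 lower with resveratrol. Over all tested genes the share without overlap was 27.3%, with 2099 higher and 2125 lower. Of 8 basal and stress keratins 5 were lower and 2 higher, with KRT17 at −0.37 and KRT16 at 0.33, both keratins of activated epithelium. Of 25 matrix, protease and adhesion genes 16 were lower and 7 higher (median −0.21).

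Other lists were divided or flat. DNA replication genes had 9 higher and 18 lower of 38, which library size alone turned to 14 higher and 12 lower. Aminoacyl-tRNA synthetases had 4 higher and 7 lower of 20, turned to 11 and 6 by library size alone. AP-1 and ERK feedback genes had 7 higher and 9 lower of 22 (8 and 4 with library size alone), and ER chaperones 9 and 9 of 20 (10 and 1 with library size alone). NF-κB and inflammatory genes had 7 higher and 4 lower of 21, retinoid metabolism 5 and 4 of 11, and metallothioneins and zinc export 1 and 2 of 6, of which 3 fell with resveratrol and 4 with EGCG against the controls. Of the 13 mitochondrially encoded transcripts 0 were called between the agents by edgeR or DESeq2, and 0 had an unadjusted p under 0.05. With a term for the 2 sets of replicates in edgeR, 4 of them were higher and 1 lower. Taken apart, replicates 1 to 3 gave 4 higher and 5 lower (median −0.02), and replicates 4 to 6 gave 4 and 1 (median 0.17).

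In a few genes the direct difference came mainly from a fall with EGCG, among them the selenoproteins SELENOW, SELENOH and GPX1. Over the whole selenoprotein list both agents contributed. Of 18 selenoproteins tested, 15 were higher with resveratrol than with EGCG and 2 lower (median 0.34). Against the controls 10 rose and 2 fell with resveratrol (median 0.14), and 6 fell and 2 rose with EGCG (median −0.05). SELENOW (19:47778677-47784686), a small redox selenoprotein, had counts of 290, 309 and 324 with EGCG, 759, 815 and 850 with resveratrol, and 905, 916 and 1010 in the controls. The 3 groups did not overlap, the fall with EGCG was −1.60 (SE 0.0419, edgeR adjusted p = 2.2e-26), and the combination samples had a median of 290, as low as with EGCG alone. SELENOH, a nucleolar selenoprotein, and GPX1, the cytosolic glutathione peroxidase, fell with EGCG by 0.66 and 0.59 on the log2 scale, and with resveratrol their changes of −0.02 and −0.04 did not pass (edgeR adjusted p = 0.79 and 0.47). GPX2, also an NRF2 target, was higher with resveratrol instead. The list took a median of 0.142% of counts with EGCG, 0.231% with resveratrol and 0.171% in the controls.

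The chorionic gonadotropin β genes, which code for a placental hormone subunit that some carcinomas also make, were lower with EGCG. All 5 tested were higher with resveratrol than with EGCG (median 0.92), by DESeq2 as well. Against the controls all 5 fell with EGCG and 1 fell with resveratrol by edgeR, but 3 and 0 by DESeq2. CGB8 had counts of 16.5, 23.9 and 28.1 with EGCG, 37.2, 42.4 and 49.5 with resveratrol, and 42.9, 48.4 and 57.0 in the controls. These genes are near-identical copies, so reads may be split among them, and their sum was 79.4 ± 9.34 with EGCG, 156 ± 19.9 with resveratrol and 177 ± 36.1 in the controls (normalized counts, mean ± SD, n = 6). KANK4, a cytoskeletal scaffold, fell with EGCG by 0.95 on the log2 scale, and SLC30A1, the zinc exporter of the plasma membrane, by 0.42. SLC30A1 overlapped between the agents, with counts of 345 to 446 with EGCG and 436 to 525 with resveratrol, and its two-sided exact permutation p between the agents was 0.00649.

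**Figure D3:**
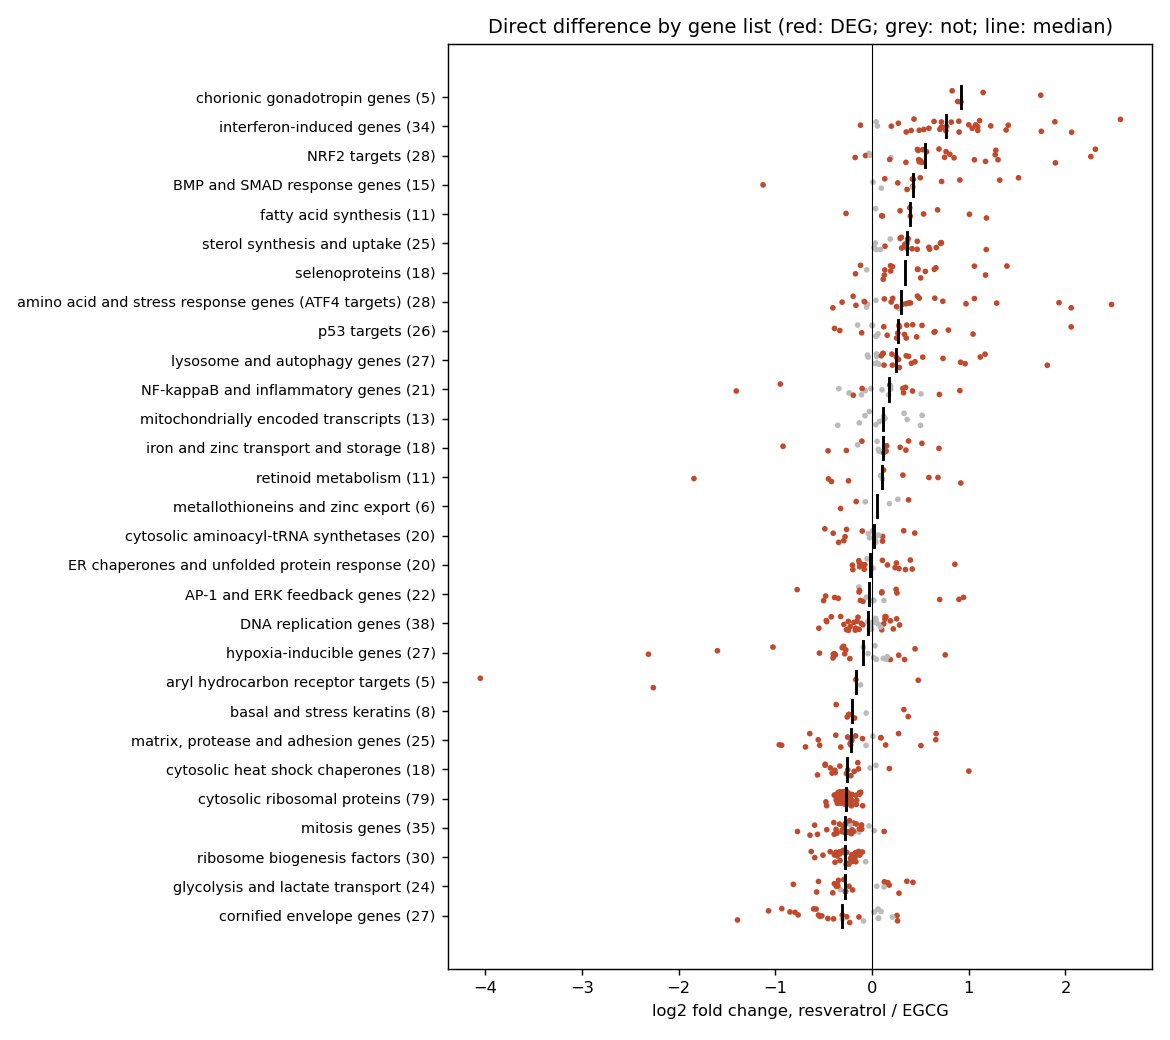
Log2 difference (resveratrol minus EGCG) of every tested member of 29 gene lists, 1 point a gene, with DEGs in red, other genes in grey and a line at each list's median. Interferon-induced genes (median 0.77) and chorionic gonadotropin genes (0.92) have the highest medians, and cornified envelope genes (−0.31) and glycolysis and lactate transport genes (−0.28) the lowest.

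The agents moved 42 genes in opposite directions against the untreated controls, 0.271% of those tested: 23 rose with resveratrol and fell with EGCG (0.149%), and 19 fell with resveratrol and rose with EGCG (0.123%). These 42 were 15.4% of the 273 DEGs of EGCG and 0.477% of the 8807 DEGs of resveratrol. Both comparisons use the same 6 control libraries, and a high or low control value moves both changes of a gene the same way. For all 42 the resveratrol and EGCG libraries did not overlap, which the choice of genes largely fixes. The resveratrol libraries did not overlap with the controls for 33, the EGCG libraries for 25, and both for 20. The genes were chosen as DEGs in these same comparisons, so these counts also follow in part from the choice. The shares over all tested genes are not given here for the comparisons with the controls. The changes were small. The smaller of a gene's 2 absolute log2 changes ran from 0.0667 to 0.683 with a median of 0.197, and the median absolute change was 0.284 with resveratrol and 0.217 with EGCG. Resveratrol had the larger change in 30 and EGCG in 12. The genes were well expressed, with a median control level of 852 normalized counts beside 182 over all tested genes, and 37 were protein coding. Within the first 3 and within the last 3 replicates, taken apart, all 42 kept opposite signs, as they did with library size alone, though these are the samples they were chosen on.

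**Figure D4:**
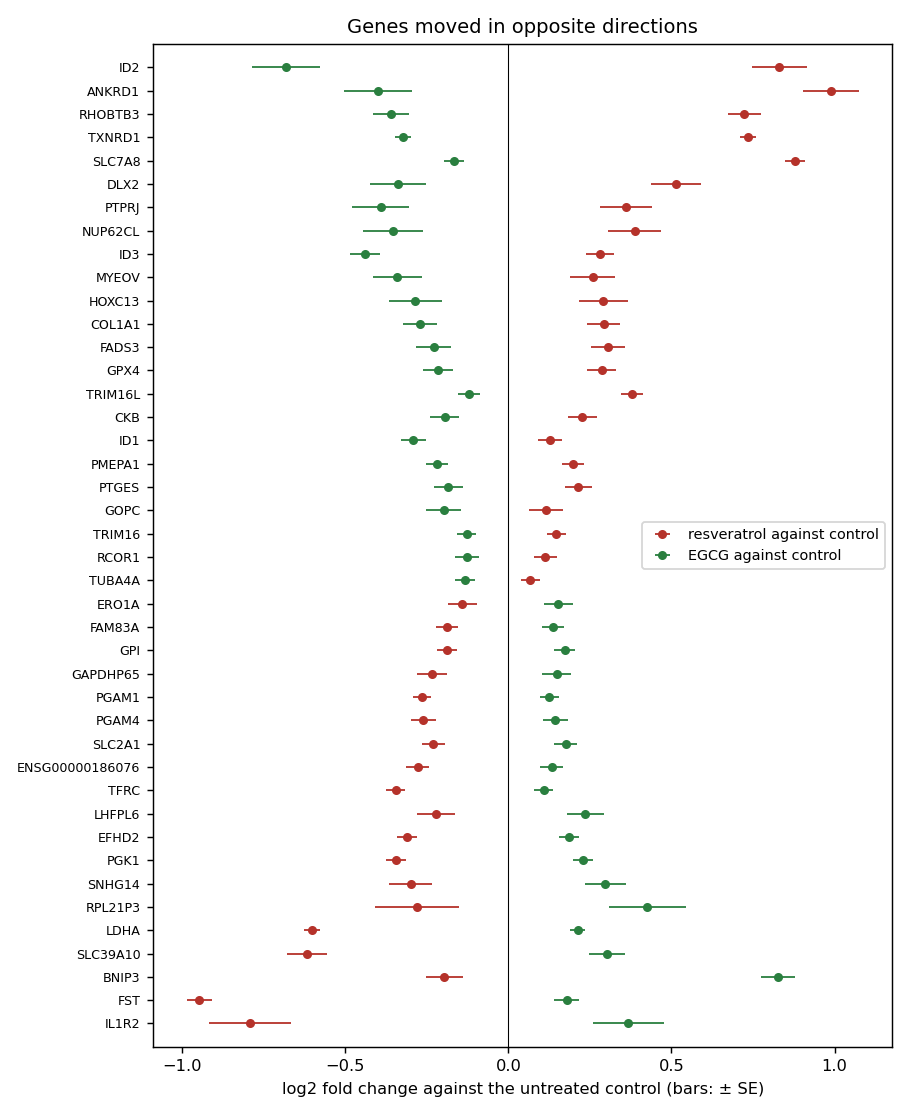
Log2 change against the untreated control with resveratrol and with EGCG for the 42 genes moved in opposite directions, with SE bars. The 23 genes that rose with resveratrol and fell with EGCG and the 19 with the reverse pattern are ordered by the direct difference, and most resveratrol points (30 of 42) lie further from 0 than the EGCG points.

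Promoter sequences are shown for the genes that carry this contrast, LDHA, PGK1, BNIP3 and SLC2A1 for the glycolytic and hypoxia genes, ID2 for the ID genes, and TXNRD1 for redox control. ATF3 is added as a stress gene that rose with resveratrol and was no DEG with EGCG. Each is the 250 bases before the RefSeq gene start in GRCh38.p14, 5′ to 3′ on the gene's strand. These include genes with several matches to a response element and SLC2A1, which has none in these bases, and the choice was made with the matches known. For the first 5, capitals mark ACGTG or GCGTG, the core of the hypoxia response element, on either strand. The palindrome CACGTG holds ACGTG on both strands. For TXNRD1 the capitals mark the antioxidant response core TGACNNNGC and for ATF3 the amino acid response core TGATGNAAN.
LDHA, chr11:18394313-18394562, plus strand: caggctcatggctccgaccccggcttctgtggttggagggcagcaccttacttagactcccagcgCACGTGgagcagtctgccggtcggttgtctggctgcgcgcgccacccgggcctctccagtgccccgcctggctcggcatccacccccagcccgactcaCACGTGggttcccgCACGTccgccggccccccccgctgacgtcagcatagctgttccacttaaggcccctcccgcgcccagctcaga
PGK1, chrX:78103998-78104247, plus strand: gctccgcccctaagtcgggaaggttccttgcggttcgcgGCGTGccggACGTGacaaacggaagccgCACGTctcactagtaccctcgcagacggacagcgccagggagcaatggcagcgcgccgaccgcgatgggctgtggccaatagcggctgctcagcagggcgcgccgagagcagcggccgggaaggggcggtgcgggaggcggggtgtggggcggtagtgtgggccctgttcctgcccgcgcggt
BNIP3, chr10:131981924-131982173, minus strand: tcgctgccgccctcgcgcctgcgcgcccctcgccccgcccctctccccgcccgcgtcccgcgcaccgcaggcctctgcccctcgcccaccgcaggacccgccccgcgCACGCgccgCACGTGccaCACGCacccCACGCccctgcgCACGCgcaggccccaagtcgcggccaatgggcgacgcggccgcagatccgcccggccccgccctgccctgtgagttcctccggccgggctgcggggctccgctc
SLC2A1, chr1:42958869-42959118, minus strand: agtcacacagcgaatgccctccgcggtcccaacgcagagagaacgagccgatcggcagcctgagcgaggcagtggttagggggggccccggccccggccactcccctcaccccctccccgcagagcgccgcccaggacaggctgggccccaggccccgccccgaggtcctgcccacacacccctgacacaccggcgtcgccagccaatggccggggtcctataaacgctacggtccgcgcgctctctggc
ID2, chr2:8681806-8682055, plus strand: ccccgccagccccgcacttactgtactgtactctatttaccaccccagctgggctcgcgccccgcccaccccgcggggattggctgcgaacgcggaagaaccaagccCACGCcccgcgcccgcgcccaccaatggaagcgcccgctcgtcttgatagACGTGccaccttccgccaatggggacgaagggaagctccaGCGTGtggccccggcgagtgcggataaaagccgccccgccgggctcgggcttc
TXNRD1, chr12:104215529-104215778, plus strand: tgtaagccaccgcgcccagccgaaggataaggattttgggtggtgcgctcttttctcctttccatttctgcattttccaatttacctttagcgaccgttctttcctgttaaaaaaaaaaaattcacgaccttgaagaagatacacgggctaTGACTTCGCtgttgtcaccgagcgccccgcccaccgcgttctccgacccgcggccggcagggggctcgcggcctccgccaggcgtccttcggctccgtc
ATF3, chr1:212565157-212565406, plus strand: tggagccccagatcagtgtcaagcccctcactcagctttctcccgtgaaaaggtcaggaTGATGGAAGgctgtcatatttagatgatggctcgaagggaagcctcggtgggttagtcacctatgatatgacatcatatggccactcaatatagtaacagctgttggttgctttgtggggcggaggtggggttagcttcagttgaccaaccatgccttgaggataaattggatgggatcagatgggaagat

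The 300-base window from 250 before to 50 after the start was searched on both strands in 27305 RefSeq promoters. ACGTG was found in 21.6% of them and in 26.9% of those of the tested genes. It was present in 6 of the 14 promoters found for genes that fell with resveratrol and rose with EGCG (42.9%: BNIP3, ERO1A, GPI, LDHA, PGK1 and TFRC), in 8 of 18 for the reverse pattern (44.4%), in 16 of 22 on the hypoxia list (72.7%) and in 8 of 22 on the glycolysis list (36.4%). PGAM1, PGAM4, SLC2A1 and FST had no match to it. GCGTG was found in 36.3% of all promoters and 50.9% of those of tested genes, beside 8 of 14 (57.1%) and 10 of 18 (55.6%), shares near that of the tested genes. The antioxidant core TGACNNNGC was in 13.6% of all promoters and 15.3% of those of tested genes, beside 1 of 14 and 2 of 18. It was in 6 of 20 NRF2 targets (30.0%) and in 8 of 22 ATF4 targets (36.4%), so it was not particular to the NRF2 list. TGATGNAAN was in 3.67% of all and 1.72% of those of tested genes. It was in 6 of 22 ATF4 targets (27.3%), and in no promoter of the opposite genes found. CYP1A1 and AKR1C1 had no match to the dioxin response TNGCGTG, which contains GCGTG, or the antioxidant core, respectively, in this window. A match is a description of the letters and not of a bound site.

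Of the 24 glycolysis and lactate transport genes tested, 5 were opposite genes. LDHA (11:18394560-18408425), the lactate dehydrogenase that reduces pyruvate, had lowest, median and highest counts of 5125, 5191 and 5441 with resveratrol, 8994, 9144 and 9516 with EGCG, and 7731, 7981 and 8088 in the controls. The groups did not overlap. It fell with resveratrol by 0.60 (edgeR adjusted p = 2.1e-21) and rose with EGCG by 0.21 (edgeR adjusted p = 1.9e-07). PGK1 (gene span X:77910739-78129295), phosphoglycerate kinase, had counts of 2835, 2870 and 3062 with resveratrol, 4177, 4385 and 4533 with EGCG, and 3486, 3684 and 3974 in the controls, again without overlap. Its changes were −0.34 and 0.23. SLC2A1, the glucose transporter GLUT1, changed by −0.23 with resveratrol and 0.18 with EGCG, GPI, glucose-6-phosphate isomerase, by −0.19 and 0.17, and PGAM1, phosphoglycerate mutase, by −0.26 and 0.13. PGAM1 shares reads with its near copy PGAM4, also among the 42, and their summed counts were 5383 ± 151 with resveratrol, 7076 ± 224 with EGCG and 6485 ± 217 in the controls (mean ± SD, n = 6).

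Over the whole list of 24 glycolysis and lactate transport genes, 15 were lower with resveratrol than with EGCG and 6 higher (median −0.28). Against the controls 13 fell and 6 rose with resveratrol, and 8 rose and 0 fell with EGCG (13 and 0 at an unadjusted p, 8 and 0 by DESeq2). The list took 1.15 to 1.18% of all counts with resveratrol and 1.36 to 1.45% with EGCG, with a control median of 1.33%. GAPDH and ENO1, which sit between the enzymes above, fell with resveratrol by 0.29 and 0.31, and their EGCG values of 0.07 and 0.06 did not pass (edgeR adjusted p = 0.28 and 0.31). PKM, pyruvate kinase, was likewise lower than with EGCG (log2 difference −0.29).

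BNIP3 (10:131967684-131981967), a mitochondrial receptor for mitophagy and a HIF target, was the gene EGCG raised most among the 42. Its counts were 403, 442 and 484 with EGCG, 200, 212 and 250 with resveratrol, and 248, 250 and 256 in the controls. EGCG samples stood clear of the rest, while resveratrol and control samples met at 250. The changes were 0.83 with EGCG (edgeR adjusted p = 8.1e-14) and −0.20 with resveratrol (edgeR adjusted p = 0.0043). Its processed copy BNIP3P1 may share reads with it, rose with EGCG by 0.89 and was at −0.18 with resveratrol. ERO1A, which forms disulphides in the ER and is also HIF-induced, changed by −0.14 and 0.15.

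The hypoxia list, which leaves out the glycolysis genes above, was not a mirror image. It held 2 opposite genes, BNIP3 and ERO1A. The 5 opposite genes LDHA, PGK1, SLC2A1, GPI and PGAM1 were counted on the glycolysis list, so this result depends on how the lists were split. PDK1 was counted there too, and STC2 with the ATF4 targets. Of the 27 genes on the hypoxia list 13 rose and 7 fell with resveratrol, and 9 rose and 0 fell with EGCG (15 and 0 at an unadjusted p, 7 and 0 by DESeq2). In the direct comparison 6 were higher and 13 lower with resveratrol (median −0.09), or 10 and 12 with library size alone. NDRG1, a stress-induced differentiation gene, rose with both agents, by 0.12 with resveratrol and 0.39 with EGCG, and so did P4HA1, a collagen prolyl hydroxylase, by 0.10 and 0.41. PDK1, a kinase that inhibits pyruvate dehydrogenase, had counts of 194, 199 and 213 with EGCG, 128, 136 and 153 with resveratrol, and 137, 152 and 161 in the controls. It rose with EGCG by 0.43, and its resveratrol value of −0.12 did not pass (edgeR adjusted p = 0.13). STC2, a secreted glycoprotein, rose with EGCG by 0.20 and was at 0.03 with resveratrol.

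Signalling and transport genes shared this direction. FST (5:53480626-53487134), follistatin, which binds activin and some BMPs, had counts of 1693, 1759 and 1826 with resveratrol, 3588, 3861 and 4106 with EGCG, and 3239, 3420 and 3564 in the controls. No group overlapped another, and the changes were −0.95 with resveratrol (edgeR adjusted p = 2.6e-21) and 0.18 with EGCG (edgeR adjusted p = 0.006). IL1R2, the decoy receptor for interleukin 1, changed by −0.79 and 0.37, and SLC39A10, a zinc importer, by −0.62 and 0.30. TFRC, the transferrin receptor that brings iron into the cell, changed by −0.35 and 0.11. EFHD2, a calcium-binding actin regulator, changed by −0.31 and 0.18, and the long noncoding SNHG14 by −0.30 and 0.30. The remaining 6 genes of this direction were LHFPL6, FAM83A, PGAM4, RPL21P3, GAPDHP65 and 1 gene without a symbol. The last 3 of the named ones are copies of abundant genes, and their reads are uncertain. The gene without a symbol is annotated as a processed pseudogene, so its reads are uncertain as well.

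ID1, ID2 and ID3 all showed the reverse direction, ID2 with the largest direct difference. ID2 (2:8678845-8684461) had counts of 116, 125 and 142 with resveratrol, 36.9, 43.7 and 55.0 with EGCG, and 64.9, 71.0 and 79.6 in the controls. The groups did not overlap, with a rise of 0.83 with resveratrol (edgeR adjusted p = 2e-10) and a fall of −0.68 with EGCG (edgeR adjusted p = 7e-05). ID3 had counts of 745, 788 and 824 with resveratrol, 435, 482 and 522 with EGCG, and 616, 655 and 680 in the controls, also without overlap. It rose by 0.28 and fell with EGCG by 0.44 on the log2 scale. ID1 changed by 0.13 and −0.29. PMEPA1, a membrane protein that restrains TGF-β signalling, changed by 0.20 and −0.22. SMAD6, an inhibitory SMAD of the BMP branch, ranged from 29.8 to 44.6 with resveratrol, from 4.31 to 20.4 with EGCG and from 18.5 to 40.6 in the controls, and its EGCG value of −0.70 did not pass (edgeR adjusted p = 0.17). A list of 18 BMP and SMAD response genes was drawn up after these values were seen. Of its 15 tested members 11 were higher with resveratrol than with EGCG and 1 lower (median 0.42). Of the 5 among the 42, ID1, ID2, ID3 and PMEPA1 rose with resveratrol and fell with EGCG, and FST went the other way.

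Of the 18 selenoproteins tested, TXNRD1 and GPX4 were the 2 with this pattern. TXNRD1 (12:104215779-104350307), thioredoxin reductase, is at once a selenoprotein and an NRF2 target. It had counts of 8335, 8399 and 8815 with resveratrol, 3954, 4090 and 4226 with EGCG, and 4985, 5121 and 5268 in the controls. The groups did not overlap, and the changes were 0.73 (edgeR adjusted p = 1.3e-23) and −0.32 (edgeR adjusted p = 1.3e-11). GPX4, which reduces lipid peroxides in membranes, had medians of 1404, 1002 and 1165, and changed by 0.29 with resveratrol and −0.22 with EGCG. TRIM16 and its partial copy TRIM16L, the latter an NRF2 target, were also in this group.

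Genes of other functions completed this direction. SLC7A8 (14:23125295-23183674), a neutral amino acid exchanger, had counts of 2984, 3100 and 3297 with resveratrol, 1450, 1505 and 1573 with EGCG, and 1667, 1708 and 1726 in the controls. It rose by 0.88 and fell with EGCG by 0.17 on the log2 scale (edgeR adjusted p = 5.4e-23 and 0.0021). ANKRD1, a YAP target and transcriptional cofactor, changed by 0.99 and −0.40, and RHOBTB3 by 0.72 and −0.36. The homeobox genes DLX2 and HOXC13 changed by 0.52 and −0.34, and by 0.29 and −0.29. PTPRJ, a receptor tyrosine phosphatase, changed by 0.36 and −0.39, NUP62CL by 0.39 and −0.35, MYEOV by 0.26 and −0.34, and FADS3, a desaturase family member, by 0.30 and −0.23. COL1A1, collagen I, changed by 0.29 and −0.27. It is the fibroblast marker that carried nearly all of the fibroblast sum, which was higher with resveratrol than with EGCG as given above. THY1 was at 0 in every single-agent sample. The remaining 5 genes were CKB, PTGES, GOPC, RCOR1 and TUBA4A.

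Iron and zinc genes, a list also drawn up after values were seen, had 9 higher and 4 lower of 18 with resveratrol than with EGCG (median 0.11), and the importers TFRC and SLC39A10 were its 2 members among the 42. Near the threshold, the opposite genes with the largest adjusted p by edgeR were GAPDHP65 (0.0964), IL1R2 (0.0958) and ERO1A (0.0949), each in the EGCG comparison. Just outside were LNCAROD (0.103) and IL4R (0.104) in the resveratrol comparison and SEMA4B (0.105) in the EGCG comparison.

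With both agents together, the edgeR log2 change against the controls lay between the changes with each agent alone for 39 of the 42 genes. The exceptions were ANKRD1, COL1A1 and TUBA4A. This log2 change was nearer to that with resveratrol in 36, 22 of the 23 that rose with resveratrol and 14 of the 19 that fell. The 6 nearer to EGCG on this log2 scale were BNIP3, IL1R2, SNHG14, LHFPL6, FAM83A and GPX4. The 42 were chosen with the agents on opposite sides of the controls, so any level near the controls lies between them by that choice. These counts were not made over all tested genes and describe the 42 alone. LDHA had a combination median of 6234, between 5191 with resveratrol and 9144 with EGCG, and ID2 one of 85.0, between 125 and 43.7. SLC7A8 was at 3081, close to the 3100 of resveratrol alone, and BNIP3 at 357, nearer the 442 of EGCG alone.

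**Figure D5:**
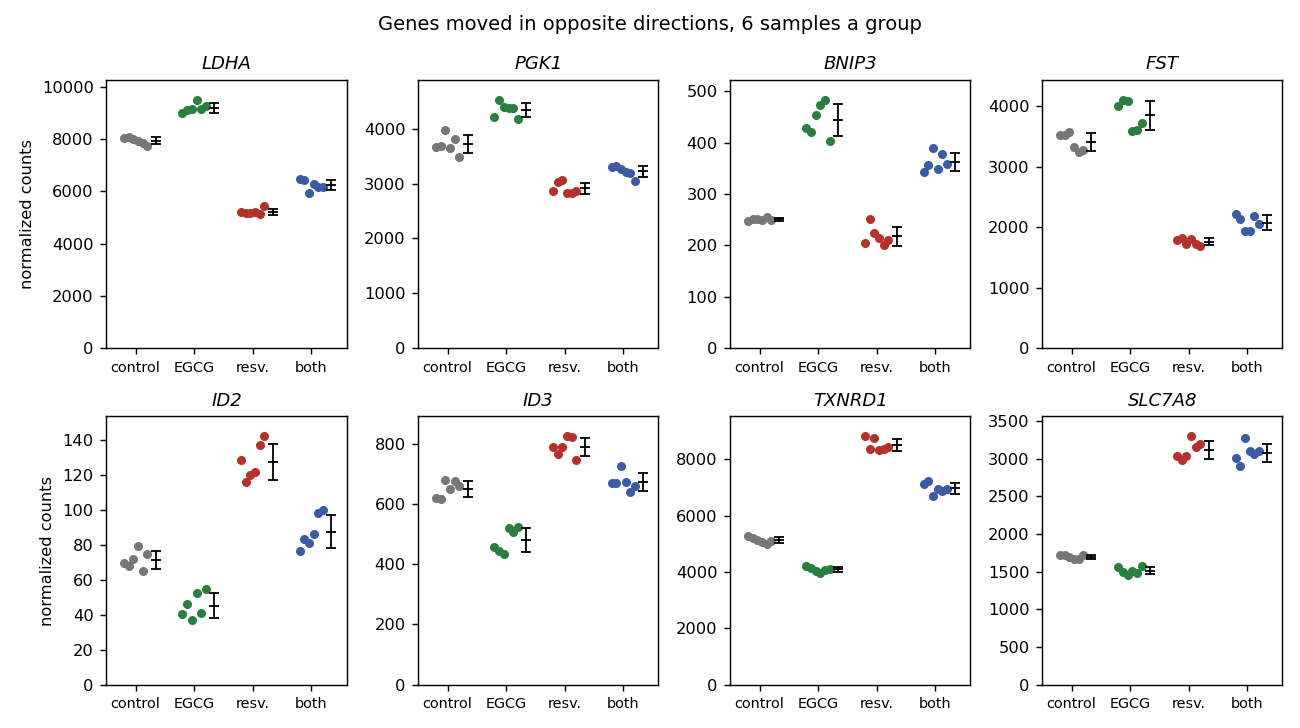
Normalized counts (linear axes from 0) of 8 genes moved in opposite directions, in the 6 samples of each of the 4 groups, with bars for mean ± SD. LDHA, PGK1, BNIP3 and FST are highest with EGCG and lowest with resveratrol, ID2, ID3, TXNRD1 and SLC7A8 the reverse, and the combination medians lie between.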

How the data were processed

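Total RNA of 24 MDA686TU samples was sequenced by the authors as paired-end stranded mRNA libraries. Per the submitters' processing notes, reads were demultiplexed with bcl2fastq 2.17.1.14, trimmed with Trimmomatic 0.36, checked with FastQC 0.11.5, aligned to GRCh38 with HISAT2 2.0.4 and sorted with SAMtools 1.3.1, and DESeq2 1.20.0 was named for the statistics. The counting program, annotation release and strand setting are not given in the sources used here. The authors deposited raw counts per gene, counts divided by size factors (normalized counts, a signal) and FPKM. Columns were matched to samples by library name, and 0 were left unmatched.

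The raw counts were analysed in R 4.3.3 with edgeR 4.0.16: filterByExpr, TMM scaling and a quasi-likelihood fit with a mean per group over all 24 libraries, called at an adjusted p under 0.1 and a p under 0.05. Fold changes are log2, resveratrol minus EGCG, or agent minus control. The sample values printed are the deposited normalized counts, and marker levels the deposited FPKM. Between the agents, 80 named genes were also tested by a two-sided exact permutation test on log2 CPM computed from the counts (prior count 2). Its smallest possible p is 0.00216, which 77 of them reached, and 2 were above 0.05. Many of these genes were chosen for a large difference. Only the value of SLC30A1 is printed, and the other p-values of single genes are edgeR's. The scripts were tested on simulated data. DESeq2 1.42.0, other scalings and filters, a replicate block, a batch term and left-out replicates were alternatives. Gene names and coordinates came from GENCODE v44, matching 15421 of 15476 tested genes, and promoters from RefSeq (GRCh38.p14).

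Members, lists and tests were chosen with earlier results of these data known. Named genes were the 12 largest direct differences in each direction with non-overlapping libraries, 12 opposite genes in each direction, those nearest the threshold, 10 DEGs of EGCG that were no DEG of resveratrol, list members and genes the study names. Some other opposite genes are named for completeness, and SLC7A5, SMAD6 and similar list members were picked after their values were seen. Within each group no 2 libraries were duplicates, and pairs from different groups were not compared. Chi-square per degree of freedom between 2 libraries of a group ran from 1.223 (combination replicates 5 and 6) to 5.964 (resveratrol replicates 3 and 4). The lowest values are not far above counting noise alone. Intervals of counts were not used, since replicate spread enters every test.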

Additional observations from a re-analysis of the deposited data

Results flagged for a closer look

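Among 198 groups of 6 samples (66 named genes in the control, EGCG and resveratrol samples), 7 held 1 sample set apart from the other 5 by more than 0.625 of the group's range. Chance flags about 1 group in 20. Values are normalized counts. DHRS2 was at 212.9 in EGCG replicate 1, beside 195.6 to 200.5 in the others, and at 59.86 in resveratrol replicate 5, beside 74.38 to 80.08. AKR1C2 was at 202.3 in control replicate 6, beside 244.3 to 267.3. SULT1E1 was at 15.72 in EGCG replicate 5, beside 6.426 to 9.256. SLC7A11 was at 2356 in control replicate 3, beside 2604 to 2658. LDHA was at 5441 in resveratrol replicate 6, beside 5125 to 5217, and SLC30A1 at 446.1 in EGCG replicate 6, beside 344.7 to 374.2. In SLC30A1 this is the EGCG sample that overlapped the resveratrol range.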

How the results depend on the processing

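Counts are given as genes different between the agents, genes past 1.5-fold, and opposite genes (8517, 1364 and 42 as reported). DESeq2 gave 8059, 1334 and 45, DESeq2 size factors in edgeR 8526, 1364 and 40, library size alone 8749, 1512 and 47, an adjusted p under 0.05 gave 7655, 1321 and 30, fitting only the groups compared 8490, 1204 and 51, and a batch term for replicates 1 to 3 against 4 to 6 gave 8674, 1365 and 52. Leaving out 1 replicate gave 8203 to 8561, 1356 to 1439, and 31 to 49. The count past 1.5-fold moved to 2074 with all genes of 1 count or more and to 877 with those of 10 counts or more in each library. The opposite count moved to 185 with an unadjusted p alone, to 16 in replicates 1 to 3 and 18 in replicates 4 to 6, where fewer samples were tested (6705 and 6887 direct differences), and to 14 where both changes had to reach 1.2-fold. Whether the replicate numbers pair the samples is not settled by these values. Samples of the same number deviated together with a median correlation of 0.0354, beside 0.0214 for other numbers of the same set. Between the 2 sets the median was −0.0388, and 3 of 6 numbers matched best with themselves. A fit with the replicate block gave 8772, 1364 and 59. For the direct comparison alone, 1713 values of 66 named genes were recomputed. Of these, 1706 kept their side of the threshold and 7 passed where they had not (CCL20 and IL32). No gene that was a DEG as reported reversed direction. A change of direction in a gene that passed in neither fit was not counted. The changes of single genes against the controls were not recomputed in this way. Of the opposite genes, ERO1A, IL1R2 and GAPDHP65 are among those lost at an adjusted p under 0.05. Depth limits low genes such as CA9, SPP1 and MX2, with medians under 30 normalized counts in every group.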
